A study of Homo sapiens with 6 samples.

Results

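COLO-320DM is a human colorectal cancer cell line, and expression was measured in cells of this line sorted by CD44, a receptor for hyaluronan that is used to sort stem-like colorectal cancer cells. The cells had received no treatment and had been grown in dishes to near confluence. Each of the 2 sorts, CD44-positive and CD44-negative, was hybridised to 3 Affymetrix arrays that the titles number 01, 02 and 03. The question here was which genes differ between the replicate numbers when the CD44 sort is held constant. All 6 of the 6 arrays entered, so that each number was represented by 1 CD44-positive and 1 CD44-negative array. The labels do not say that a number stands for a separate culture, passage or day. The p-values thus measure no more than the spread between these 6 samples, and that spread may be technical. With 2 arrays per number, their small count limits the precision of every value.

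Dishes of 1 cancer line are known to differ in expression. Immediate early genes respond within minutes to growth factors, to handling and to mechanical stress. Metallothioneins follow the supply of zinc, and glycolytic and amino acid stress genes follow nutrients and density. Sets of this kind are described below by number, without a cause being assigned.

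Median intensities of the arrays lay between 44.9 and 46.5, and log2 values of 2 arrays correlated across genes at 0.991 to 0.997. The intestinal transcription factor CDX2 was high on every array, at a mean of 11.65 (log2 intensity). The epithelial surface genes EPCAM and CDH1 were dim, at means of 4.64 and 4.12, below the limit of 5.12 under which genes were not tested. Of the markers of other cell types, none of 7 tested leukocyte, 7 endothelial and 4 erythroid genes was called by limma's F-test or had an unadjusted p under 0.05 in it, and the fibroblast genes are taken up below. Levels are given throughout as log2 intensity, and differences on the same scale as 1 number minus another ("02 minus 01"), so that a positive value is higher in the number named first.

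Of 13842 genes tested with limma's moderated F-test, 1430 (10.3%) differed among the 3 numbers at an adjusted p under 0.05, and 4483 had an unadjusted p under 0.05. Among the 1430, the median distance between the highest and the lowest number was 0.56, and 139 genes were at least 1 apart, which is 2-fold. Number 02 was the one apart from the other 2 for 590 of them (41.3%), number 03 for 653 (45.7%) and number 01 for 187 (13.1%). Over all genes tested these shares were 29.9%, 41.9% and 28.2%. Of the called genes with number 02 apart, 386 were low there and 204 high, and with number 03 apart 355 were low and 298 high. Over all genes tested the splits were 2298 low and 1839 high for number 02, and 3608 low and 2197 high for number 03. The called genes thus leaned to low levels more than all genes did in 02, and less than all genes did in 03.

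Pairwise, 448 genes (3.24%) differed between 02 and 01, of which 114 (0.824%) were higher and 334 (2.41%) lower in 02. Between 03 and 01 there were 570 (4.12%), with 284 (2.05%) higher and 286 (2.07%) lower in 03. Between 03 and 02 there were 1375 (9.93%), with 705 (5.09%) higher and 670 (4.84%) lower in 03. The 3 comparisons share arrays, so a gene apart in 1 number enters 2 of them. Over all genes tested the median difference was -0.02, -0.05 and -0.02. The near-even split between 03 and 01 depended on scaling, since with quantile normalization of the log2 values it became 351 higher and 177 lower. An exact permutation of the numbers within each sort has 36 arrangements and cannot give a p below 0.167, so every call rests on the spread that limma pools across genes.

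The counts also depended on single arrays. Between 02 and 01 the count was 126 without the CD44-negative array 01, 143 without the CD44-negative array 02, 273 without the CD44-positive array 01 and 1122 without either array 03. The lean to lower levels in 02 was absent without the CD44-positive array 01, where 135 genes were higher and 138 lower. Between 03 and 01 it was 35 without the CD44-positive array 01, 242 without the CD44-positive array 03 and 1329 without the CD44-negative array 03. Its near-even split became 32 higher and 3 lower, 178 and 64, and 490 and 839 in these fits. Between 03 and 02 it was 366 without the CD44-negative and 618 without the CD44-positive array 02. The F-test called 733 genes without the CD44-negative array 02 and 2236 without the CD44-negative array 03.

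The sorts, which are separate arrays, moved alike for the larger differences and less so over all genes. Over all genes tested, 66.2% had the same sign in both sorts for 02 minus 01, 66.9% for 03 minus 01 and 71.5% for 03 minus 02. Of the 55 genes that were at least 1 apart between 02 and 01 on the CD44-positive arrays, 51 (92.7%) had the same sign on the CD44-negative arrays. For 03 minus 01 it was 54 of 59 (91.5%), and for 03 minus 02 it was 123 of 127 (96.9%). Picked on the CD44-negative arrays instead, 110 of 117, 20 of 24 and 138 of 142 genes had the same sign on the CD44-positive ones. Across all genes tested the 2 sorts' differences correlated at 0.580, 0.519 and 0.692, a description over genes that share arrays and normalization. Within each number the sorts may also share a dish, which the labels do not say.

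**Figure D1:**
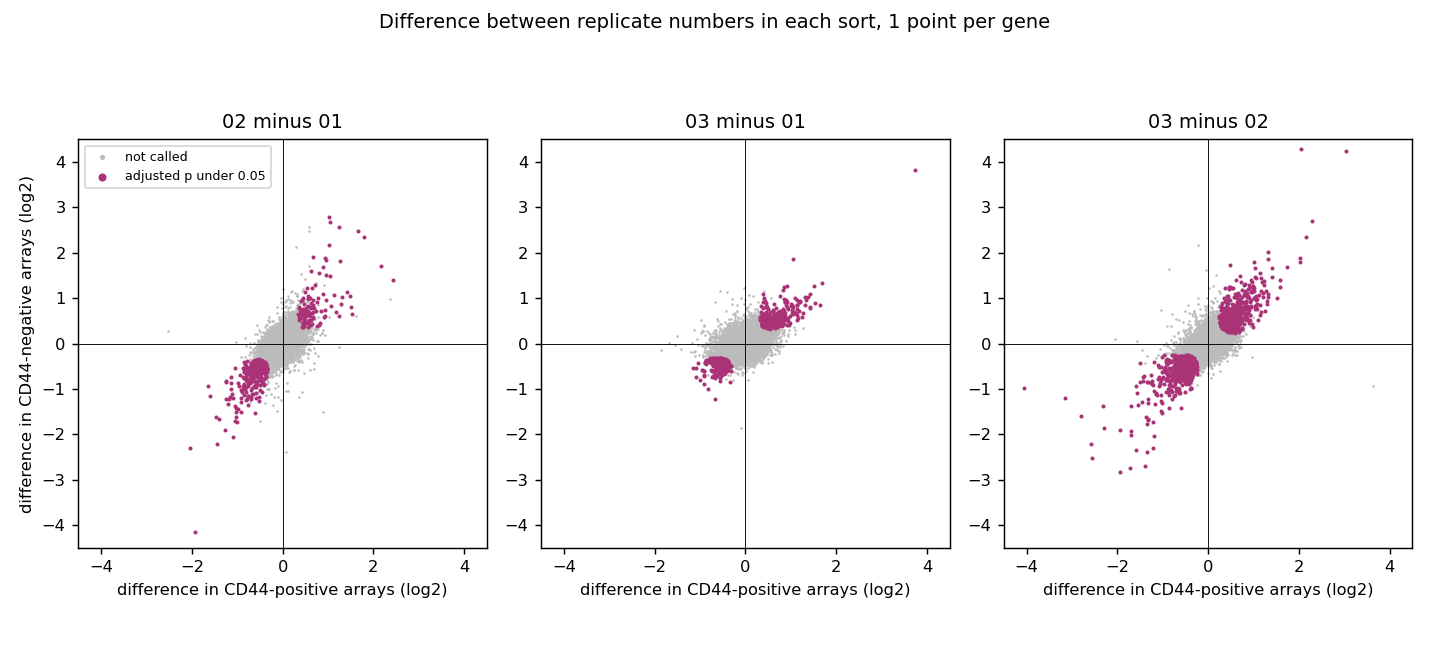
Difference between 2 replicate numbers on the CD44-negative arrays (y axis, log2) against the same difference on the CD44-positive arrays (x axis, log2), 1 point per gene tested, with called genes in colour. Called genes lie in the lower left and upper right of each panel, and the point at the far upper right of the middle panel is EGR1.

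Further probe sets of the called genes, which the fit had not used, gave the same sign for 389 of 426 (91.3%) between 02 and 01. They did so for 476 of 581 (81.9%) between 03 and 01 and for 1182 of 1403 (84.2%) between 03 and 02. Their median difference, turned to the direction of the call, was 0.37, 0.29 and 0.29 against 0.59, 0.52 and 0.49 for the probe sets used. These probe sets were read on the same arrays, so they share whatever sets an array or its sample apart. No such share was computed for genes that were not called.

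The 8 largest rises from 01 to 02 were of several kinds. GPX3, a secreted glutathione peroxidase, stood at 9.68 (CD44-positive) and 9.11 (CD44-negative) in 02. It stood at 8.02 and 6.63 in 01 and at 7.09 and 6.90 in 03. Both arrays 02 lay above the other 4, and the difference of 02 minus 01 was 2.07 ± 0.24 (SE), 4.20-fold, with an adjusted p of 0.0127. ENO2, the neuronal enolase of glycolysis, was 6.58 and 6.36 in 02 against 4.79 and 4.01 in 01 and 4.88 and 4.43 in 03. ENO2 passed the dim limit through the arrays 02 alone, so that it had to be high there, and its difference of 2.07 is given as a description. The same holds, on the mean of the arrays 01 and 03, for ACKR3, CASD1, IL13RA2 and MANSC1 among the 8, and for 16 (14%) of the 114 genes called higher in 02, against 188 (1.36%) of all genes tested, whichever their highest number.

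ENPP2 (autotaxin, which makes lysophosphatidic acid) stood at 9.15 and 8.61 in 02, 8.10 and 5.93 in 01 and 6.60 and 6.10 in 03. Here the CD44-positive array 01 lay between the groups, and 02 minus 01 was 1.87 ± 0.36 with an adjusted p of 0.0416. IL13RA2, a decoy receptor for interleukin 13, was 7.67 and 6.17 in 02 and between 4.56 and 5.25 on the other 4 arrays. CASD1, a sialic acid acetyltransferase, was 6.74 and 6.46 in 02 and between 3.62 and 5.71 elsewhere. CDKN1C, a cyclin-dependent kinase inhibitor, was 8.40 and 8.38 in 02 and between 6.20 and 7.39 elsewhere. The differences of 02 minus 01 for IL13RA2, CASD1 and CDKN1C were 1.91, 1.91 and 1.60, and that of CDKN1C had an adjusted p of 0.0276. MANSC1 and the scavenging chemokine receptor ACKR3 completed the 8 largest rises, at 1.91 and 1.95.

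The lists of matrix and Wnt target genes did not move one way in 02. Of 16 matrix genes tested, 1 was higher (0.824% of all genes) and 1 lower (2.41%) in 02 than in 01. Of 20 Wnt target genes tested apart from SOX9, none was higher and 1 was lower. SOX9 is left out of this count because it passed the dim limit through the arrays 02. The medians were -0.08 and 0.01. SOX9, a transcription factor of the intestinal crypt, stood at 6.65 and 6.54 in 02, 5.40 and 4.73 in 01 and 4.34 and 4.68 in 03. Its difference of 03 minus 02 was -2.08 and is given as a description. The matrix glycoprotein TNC was 8.42 and 6.99 in 02, 7.47 and 5.16 in 01 and 6.72 and 4.98 in 03. TNC was highest in 02 within each sort, although the CD44-positive array 01 exceeded the CD44-negative array 02, and 03 minus 02 was -1.86 ± 0.18 (adjusted p 0.00388). GREM1, a secreted BMP antagonist, stood at 7.79 and 5.45 in 02 and between 3.73 and 5.42 elsewhere. GREM1 also passed the dim limit through the arrays 02, and its difference of -2.52 between 03 and 02 is given as a description. It did not pass the F-test. NOTUM, a secreted Wnt deacylase, and PDK4, which switches off pyruvate dehydrogenase, fell by 1.28 and 2.24 from 02 to 03.

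What was low in 02 was led by SELENOP, the plasma selenium carrier. SELENOP stood at 6.02 and 4.83 in 02 against 7.96 and 8.99 in 01 and 8.06 and 9.12 in 03. The 2 groups did not overlap, and 02 minus 01 was -3.05 ± 0.48, 8.27-fold lower, with an adjusted p of 0.0242. CT55, a cancer/testis antigen, was 6.94 and 6.78 in 02 and between 8.66 and 9.09 on the other 4 arrays, a difference of -2.17 ± 0.11 (adjusted p 0.00188). The actin-binding peptide gene TMSB4X was 8.26 and 8.74 in 02 and between 9.71 and 11.09 elsewhere, a difference of -1.83 ± 0.17 (adjusted p 0.00841). TMSB4X has near-identical copies that its single probe set may also read. COL3A1, a fibrillar collagen, was 10.02 and 9.45 in 02, 11.63 and 10.61 in 01 and 11.60 and 10.85 in 03, and fell by 1.38 ± 0.12 from 01 to 02 (adjusted p 0.00601). All 3 further probe sets of COL3A1 fell, by 0.72 to 1.47.

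DMD (dystrophin), SP8, TMEM35A and LINC00470 completed the 8 largest falls, at -1.59, -1.58, -1.55 and -1.53. The further probe set of SP8 gave 0.08. LINC00470 has a further probe set at -1.06 and another at 0.09, so its fall depends on which probe set is read. Leaving out the CD44-negative array 01 ended the calls of 02 against 01 for SELENOP and SP8. SELENOP then differed by -2.50 and SP8 by -1.43. The call of SP8 was also lost without the CD44-positive array 01, at a difference of -1.73. That of ENPP2 was lost without the CD44-negative array 02, at 1.47. ACKR3, CASD1, IL13RA2 and MANSC1 passed the dim limit through the arrays 02, so no p is read for them. GPX3, CDKN1C, CT55, TMSB4X, DMD, TMEM35A, LINC00470 and COL3A1 kept their calls when any 1 array was left out. Without the CD44 covariate the calls of GPX3, ENPP2, CDKN1C, TMSB4X and COL3A1 were lost. With a variance trend and robust moderation those of GPX3, ENPP2, CDKN1C, SELENOP and SP8 were lost. With the mean of its probe sets, dim ones included, SELENOP differed by -1.39.

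Of 13 tested colorectal stem cell markers, 5 were lower in 02 than in 01 (2.41% of all genes), LGR5, CD24, LRIG1, ALDH1A1 and ALCAM, and 1, DCLK1, was higher (0.824% of all genes). The list's median was -0.34, against -0.02 for all genes. LGR5, the R-spondin receptor of crypt base cells, stood at 6.0 and 6.07 in 02, 6.86 and 7.20 in 01 and 7.17 and 7.23 in 03. Both arrays 02 were lower than the other 4, and 03 minus 02 was 1.17 ± 0.10 (adjusted p 0.00315). CD24, a glycosylphosphatidylinositol-anchored surface protein, was 8.50 and 8.66 in 02 and between 9.08 and 10.10 elsewhere, and 03 minus 02 was 1.29 ± 0.14 (adjusted p 0.00522). The tetraspanin TSPAN8 was 8.45 and 8.51 in 02, 9.66 and 9.84 in 01 and 10.47 and 10.30 in 03, with a rise of 1.90 ± 0.10 from 02 to 03 (adjusted p 0.00104).

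Of 14 tested retinoid genes, 3 were lower in 02 than in 01 (2.41% of all genes) and none higher. The list's median of -0.09 lay close to that of all genes. CYP26B1, which breaks down retinoic acid, fell by 1.37 from 01 to 02, and ALDH1A2 and ALDH1A1, which make it, fell by 0.89 and 0.56. The call of ALDH1A2 was lost without either CD44-negative array 01 or 02. It was also lost without the CD44 covariate, with quantile normalization, with no dim filter and with the mean of its probe sets. Of the 14, 5 had a positive difference. The fibroblast marker list had 3 of 10 tested members past the F-test (10.3% of all genes). COL3A1 and ACTA2 were lower and S100A4 higher in 02 than in 01, and ACTA2 passed the dim limit through the arrays 01. S100A4, a calcium-binding protein, was 7.52 and 7.20 in 02 and between 5.64 and 6.73 elsewhere. The summed intensity of the 14 fibroblast markers was 9529 to 10640 in 02, 10090 to 12960 in 01 and 9994 to 11340 in 03, and LUM, PDGFRA, FAP and POSTN were dim. VIM and COL3A1, at means of 12.98 and 10.70, dominated this sum, and the next brightest, COL1A1, had a mean of 7.765. Fewer cells of a kind and less RNA per cell cannot be told apart in such bulk samples.

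**Figure D2:**
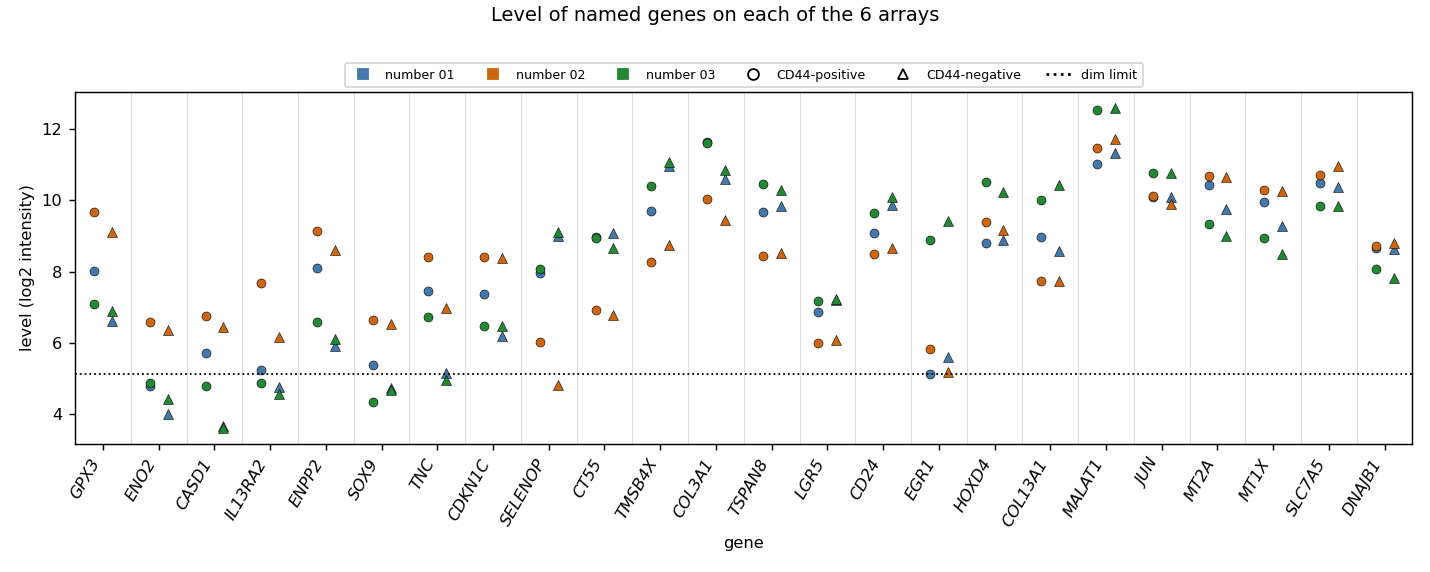
Level of 24 named genes (log2 intensity, y axis) on each of the 6 arrays, coloured by replicate number, with circles for CD44-positive and triangles for CD44-negative arrays and a dotted line at the dim limit. The arrays 02 stand above the others from GPX3 to CDKN1C, apart from TNC, where the sorts overlap, and below them from SELENOP to CD24, while the arrays 03 stand apart for EGR1, HOXD4, MALAT1 and the metallothioneins.

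Replicate number 03 was marked by EGR1, a zinc finger transcription factor and immediate early gene that serum response factor induces through CArG boxes in its promoter. Its promoter is printed because the largest difference between any 2 numbers among the genes called belongs to it. The stretch is the 250 bases before the start of the gene on the plus strand, chr5:138465229-138465478 of GRCh38.p14 from RefSeq, with 2 CArG boxes, searched on both strands, in capitals.
EGR1: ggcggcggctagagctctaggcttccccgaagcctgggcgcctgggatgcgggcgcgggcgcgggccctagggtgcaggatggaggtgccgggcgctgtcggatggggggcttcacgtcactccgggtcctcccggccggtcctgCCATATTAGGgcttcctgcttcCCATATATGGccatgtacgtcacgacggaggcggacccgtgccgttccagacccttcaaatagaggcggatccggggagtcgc
At least 1 CArG box was present in 1.14% of 27305 promoters of this length, and at least 2 in 9 of them. These are matches of letters, and no binding was measured.

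EGR1 stood at 8.88 (CD44-positive) and 9.42 (CD44-negative) in 03, against 5.14 and 5.60 in 01 and 5.84 and 5.18 in 02. Both arrays 03 were far above the other 4, and 03 minus 01 was 3.78 ± 0.26, 13.7-fold, with an adjusted p of 0.00578. Its 2 further probe sets rose by 1.73 and 4.88. JUN, a subunit of the AP-1 transcription factor, was 10.76 on both arrays 03, 10.11 and 10.11 in 01 and 10.13 and 9.90 in 02, a difference of 0.65 ± 0.09 between 03 and 01 (adjusted p 0.0238). IER2, another immediate early gene, rose by 0.55. Of 21 tested immediate early genes, 3 were higher in 03 than in 01 (2.05% of all genes) and none lower. Between 03 and 02 there were 5 higher (5.09% of all genes), since the matricellular CCN1 and CCN2, which were lowest in 02, joined them at 0.78 and 1.01. Most members of the list were thus not called, and its median for 03 minus 01 was 0.04.

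Other genes high in 03 were of several kinds. HOXD4, a homeobox transcription factor, stood at 10.50 and 10.23 in 03, 8.81 and 8.89 in 01 and 9.38 and 9.16 in 02, and 03 minus 01 was 1.51 ± 0.11 (adjusted p 0.00578). COL13A1, a transmembrane collagen, took 3 separate levels: 7.74 and 7.73 in 02, 8.98 and 8.59 in 01, and 10.02 and 10.44 in 03. It rose by 1.45 ± 0.17 from 01 to 03 (adjusted p 0.0151) and differed by 2.49 ± 0.17 between 03 and 02 (adjusted p 0.00206). PREX2, an activator of Rac, also stood apart in each number, at 4.36 and 4.60 in 02, 5.25 and 5.68 in 01 and 6.08 and 6.30 in 03, and it passed the dim limit through the arrays 03. In all, 19 genes passed all 3 pairwise contrasts. The linker histone gene H1-3 was 8.09 and 7.84 in 03 and between 6.78 and 6.92 elsewhere. Of 23 HOX genes tested, HOXD1, HOXD4, HOXD8 and HOXD11 were higher in 03 than in 02 (5.09% of all genes), and HOXC10, which passed the dim limit through the arrays 02, was lower.

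A set of long noncoding and nuclear transcripts was also high in 03. MALAT1, an abundant noncoding RNA kept in nuclear speckles, stood at 12.52 and 12.58 in 03, 11.01 and 11.32 in 01 and 11.47 and 11.73 in 02. It differed by 1.39 ± 0.09 between 03 and 01 (adjusted p 0.00578), and all 11 further probe sets had the same sign, with differences from 0.01 to 1.97. On probe sets without a suffix the difference was 0.21 and was not called. ERVK13-1 and RUSC1-AS1 were among the 8 largest rises, at 1.26 and 1.22. So were PABPC1L and PABPN1, at 1.20 and 1.25, which encode proteins and are not members of this set. The PABPN1 protein binds poly(A) tails in the nucleus. PABPC1L was not called with the mean of its probe sets. The call of PABPN1 was lost without the CD44-positive array 01, at a difference of 0.93. A list of nuclear-retained and intron-retaining transcripts was drawn up after these values were seen and therefore given no test. It had 8 of 12 tested members called higher in 03 than in 01 (2.05% of all genes), a count that the choice of members may have set. It included GOLGA8A at 1.17, the glycosyltransferase gene OGT at 0.79 and the splicing factor gene LUC7L3 at 0.68. Without the CD44-positive array 01 the calls of OGT and LUC7L3 were lost, at differences of 0.73 and 0.64. GOLGA8A belongs to a family of near-identical copies that the probe sets may not separate.

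Noncoding genes in general leaned the same way. Of 929 genes annotated as long noncoding RNA, 61 (6.57%) were higher and 3 (0.323%) lower in 03 than in 01. Of 12626 protein-coding genes, 202 (1.60%) were higher and 282 (2.23%) lower. Control probe sets moved with number 03 too. The poly-A RNA spikes lys, phe, thr and dap, added before labelling in the standard Affymetrix protocol, were 0.74, 0.48, 0.44 and 0.28 lower in 03 than in 01 on average over both sorts. The 28S and 18S ribosomal probe sets were lower by 0.80 and 0.29, and the ACTB controls by 0.24, while the hybridisation spikes bioB, bioC and bioD were 0.15 higher. Between 02 and 01, lys and phe differed by -0.39 and -0.30, and 28S by -0.12. The part of these differences in labelling and RNA make-up in the results for number 03 was not tested.

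**Figure D3:**
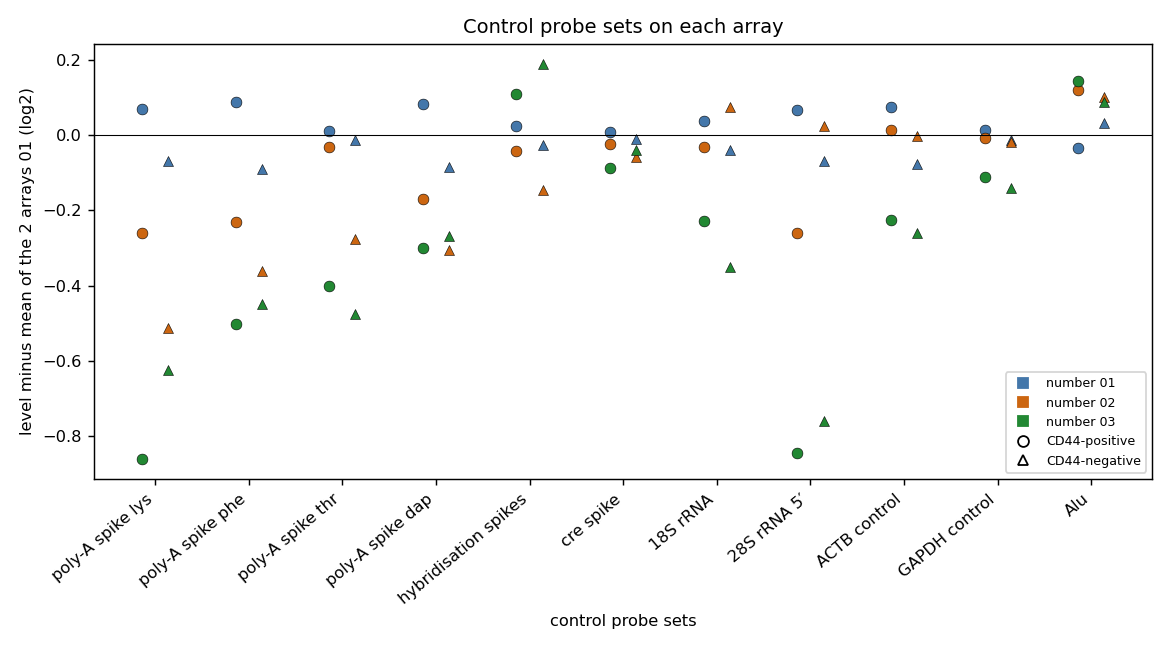
Level of control probe sets on each array minus the mean of the 2 arrays 01 (log2, y axis), coloured by replicate number, with circles for CD44-positive and triangles for CD44-negative arrays. The arrays 03 are lowest for lys, phe, thr, 18S, 28S, ACTB and GAPDH within each sort, and highest for the hybridisation spikes.

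Metallothioneins, small cysteine-rich proteins that bind zinc and copper, were low in 03 and high in 02. Metal response elements, bound by the zinc sensor MTF1, drive these genes. The 250 bases before the start of 3 of them are printed because the members moved together, all on the plus strand of GRCh38.p14 from RefSeq: MT2A at chr16:56608334-56608583, MT1X at chr16:56682220-56682469 and MT1H at chr16:56669564-56669813. Capitals mark the core of the element, TGCACNC or TGCGCNC on either strand, with overlapping matches merged.
MT2A: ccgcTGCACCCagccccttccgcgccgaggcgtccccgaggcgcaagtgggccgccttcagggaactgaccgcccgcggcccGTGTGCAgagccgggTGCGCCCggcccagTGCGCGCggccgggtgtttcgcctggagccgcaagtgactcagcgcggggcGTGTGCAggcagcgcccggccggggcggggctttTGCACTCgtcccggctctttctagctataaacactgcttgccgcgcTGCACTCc
MT1X: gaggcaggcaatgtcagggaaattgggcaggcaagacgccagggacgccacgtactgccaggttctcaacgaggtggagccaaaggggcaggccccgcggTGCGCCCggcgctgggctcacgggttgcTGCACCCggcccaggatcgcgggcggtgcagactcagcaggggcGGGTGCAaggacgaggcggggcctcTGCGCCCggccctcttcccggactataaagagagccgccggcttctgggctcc
MT1H: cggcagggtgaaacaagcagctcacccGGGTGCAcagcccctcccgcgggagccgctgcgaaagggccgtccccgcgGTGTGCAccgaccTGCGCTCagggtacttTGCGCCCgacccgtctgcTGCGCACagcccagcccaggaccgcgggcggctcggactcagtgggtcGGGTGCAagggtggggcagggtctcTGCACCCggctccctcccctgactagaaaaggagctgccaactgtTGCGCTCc
MT2A held 7 matches, MT1X 4 and MT1H 8. At least 1 match was present in 24.7% of 27305 promoters of this length and at least 4 in 0.366%.

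MT2A stood at 9.34 and 9.0 in 03, 10.44 and 9.75 in 01 and 10.68 and 10.66 in 02. The 3 numbers did not overlap, and 03 minus 02 was -1.50 ± 0.15 (adjusted p 0.00388). MT1X was 8.95 and 8.48 in 03, 9.95 and 9.29 in 01 and 10.30 and 10.25 in 02, with a difference of -1.56 ± 0.14 between 03 and 02 (adjusted p 0.00383). MT1H was 8.29 and 7.89 in 03, 9.19 and 8.60 in 01 and 9.62 and 9.56 in 02, a difference of -1.50 ± 0.13 (adjusted p 0.00336). Of 8 tested members of the list of metallothioneins and zinc export genes, 6 were lower in 03 than in 02 (4.84% of all genes), the 5 metallothioneins MT1X, MT1H, MT2A, MT1G and MT1F and the zinc exporter SLC30A1 at -0.44. Against 01, 4 were lower in 03 (2.07% of all genes), and 3 were higher in 02 (0.824%). The list's median was 0.56 for 02 minus 01, -0.60 for 03 minus 01 and -1.23 for 03 minus 02, against -0.02, -0.05 and -0.02 over all genes. The probe sets of these metallothioneins carry the suffix that marks possible cross-hybridisation within the family, so they are uncertain as measurements of separate genes.

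Most calls of 03 against 01 leaned on 1 array. To tally the calls kept or lost when an array was left out, each named gene was taken in 1 contrast. Most of those taken in 03 against 01 lost the call without the CD44-positive array 01. MT2A, MT1X and MT1H then had differences of -0.66, -0.70 and -0.62 with adjusted p-values of 0.115, 0.126 and 0.133. The 3 also lost this call without the CD44 covariate, with no dim filter and with array weights, whereas their calls of 03 against 02 remained in each of these fits. EGR1, HOXD4, COL13A1, MALAT1, ERVK13-1, RUSC1-AS1, PABPC1L, NHERF2, EDEM3, AP1S3 and GOLGA8A kept the call without any 1 array.

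Genes outside this family were as low in 03 against 01 as the metallothioneins, where MT2A, MT1X and MT1H differed by -0.92, -0.90 and -0.81. EDEM3, which trims glycans in endoplasmic reticulum quality control, stood at 6.89 and 6.71 in 03 and between 7.72 and 7.78 on the other 4 arrays, a difference of -0.92 ± 0.09 from 01 (adjusted p 0.00996). NHERF2, a scaffold of membrane transporters, and AP1S3, an adaptor subunit of vesicle coats, fell by 0.96 and 0.90. No gene called lower in 03 than in 01 was 2-fold lower, whereas 20 were 2-fold higher. The carbonic anhydrase CA2 fell by 0.81, and SOD2, the mitochondrial superoxide dismutase, by 0.75.

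In glycolysis, 7 of 17 tested genes were lower in 03 than in 02 (4.84% of all genes) and none higher. Without ENO2, which passed the dim limit through the arrays 02, they were 6 of 16, ALDOC, ALDOA, HK2, PKM, PGAM1 and GPI, by 0.34 to 0.69. The list's median for this contrast was -0.21 with ENO2 and -0.20 without it, against -0.02 for all genes. ALDOA, an aldolase, stood at 12.16 and 12.11 in 03, 12.75 and 12.66 in 02 and 12.66 and 12.58 in 01. With the mean of its probe sets PKM fell by 0.10 and was not called. In the ATF4 amino acid response, 6 of 25 were lower in 03 than in 02, again against 4.84% of all genes, SLC7A5, SLC3A2, ASNS, SLC7A11, WARS1 and PHGDH, and STC2 was higher, with a list median of -0.17. SLC7A5, the leucine transporter that pairs with SLC3A2, was 9.84 on both arrays 03, 10.71 and 10.97 in 02 and 10.48 and 10.38 in 01, and 03 minus 02 was -0.99 ± 0.11 (adjusted p 0.00511). Among 14 NRF2 targets, which answer oxidative stress, 5 were lower in 03 than in 02 (4.84% of all genes), among them the quinone reductase NQO1 at -0.93 and SLC7A11 at -0.62, and the list median was -0.30.

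Of 12 heat shock genes, 3 were lower in 03 than in 01 (2.07% of all genes), DNAJB1, HSF1 and HSPB1, by 0.69, 0.48 and 0.46. DNAJB1, a co-chaperone of HSP70, stood at 8.08 and 7.81 in 03 and between 8.63 and 8.81 on the other 4 arrays. In iron handling, ACO1, TFRC and FTL were lower in 03 than in 02, 3 of 7 tested (4.84% of all genes). Of the circadian genes, BHLHE40, NFIL3 and HLF were lower, 3 of 14, against the same 4.84%. None of 18 tested ribosomal protein genes was called in any contrast or by limma's F-test, and 1 had an unadjusted p under 0.05 in the F-test. Of 24 mitotic genes, PLK1 and CDC20 were lower in 03 than in 01 (2.07% of all genes). Both calls were lost with quantile normalization, with no dim filter, with array weights and in several fits that left out 1 array. Of 26 replication genes, GINS2 and CCNE2 were lower in 03 than in 02, a share near the 4.84% of all genes, so the calls give no result about the list.

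**Figure D4:**
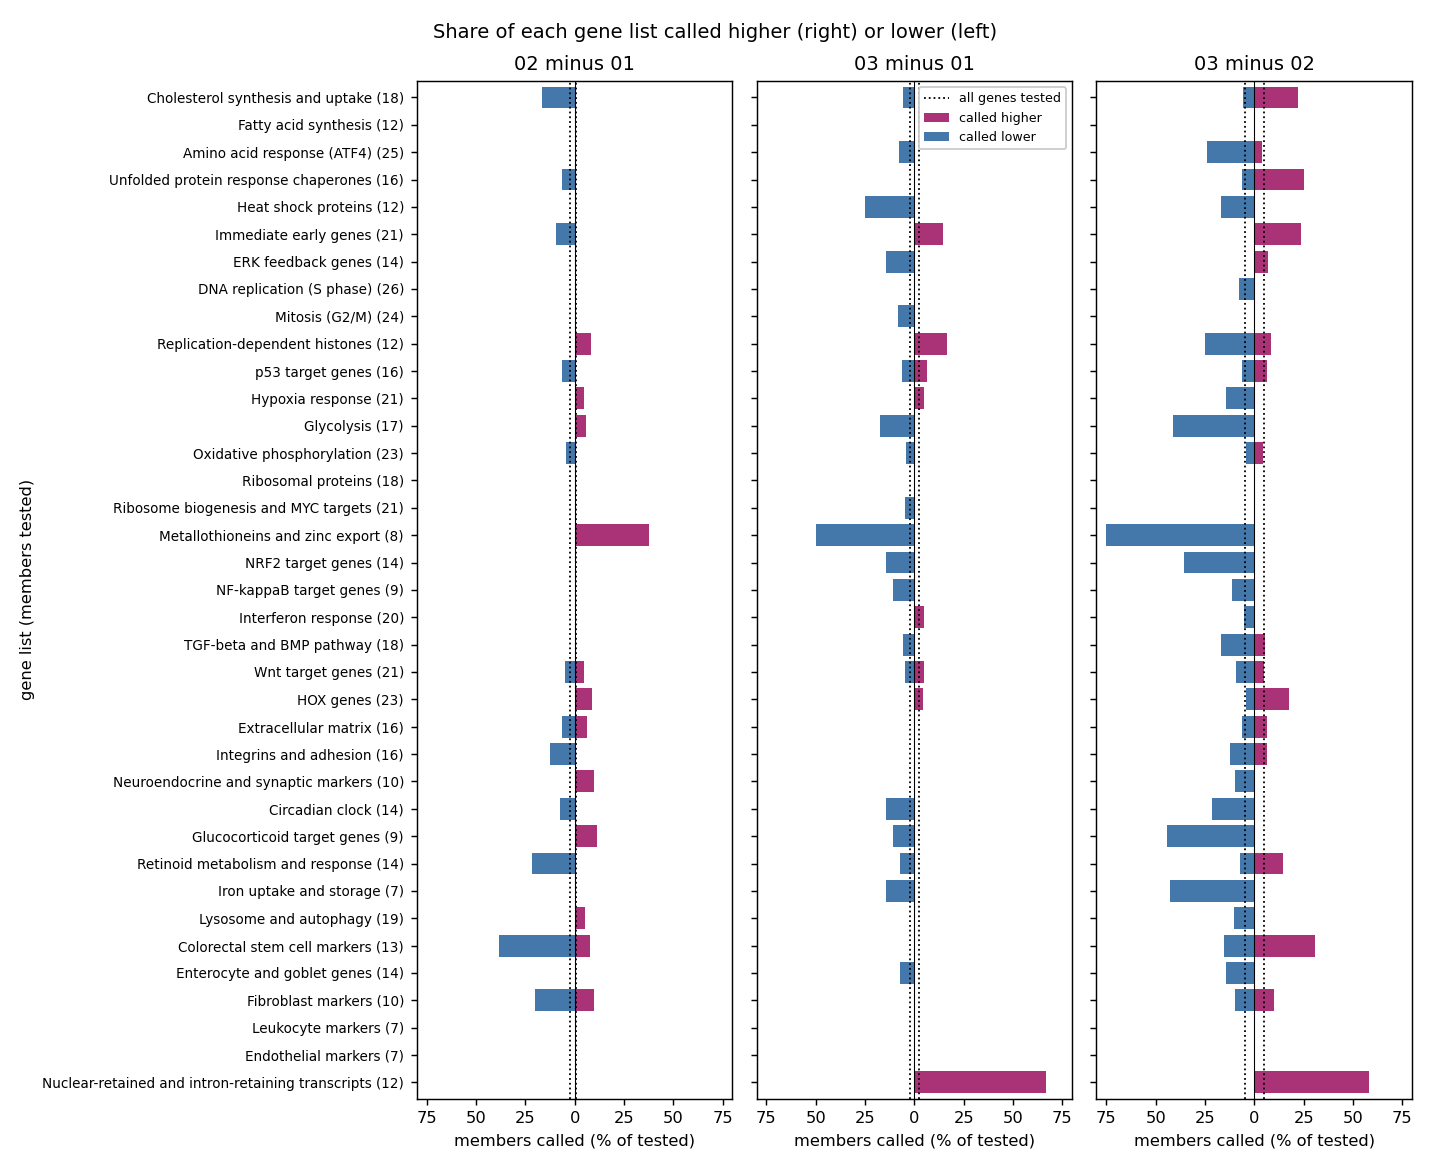
Share of the tested members of each gene list called higher (right) or lower (left) in each comparison of 2 replicate numbers, with the number of members tested in brackets and dotted lines at the share over all genes tested. Metallothioneins, glycolysis and iron genes lie to the left in 03 minus 02, and the bottom row is the list drawn up after the values were seen.

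Called genes were more frequent on 2 chromosomes than on the others. The F-test called 24.2% of 818 tested genes on chromosome 11 and 19.4% of 661 on chromosome 16, against 5.77% to 11.6% on the other chromosomes and 1 of 7 mitochondrial genes. Gene order along the chromosomes, from RefSeq, was read in 552 windows of 25 tested genes. From TM7SF2 to the end of chromosome 11, and from NAE1 to the end of chromosome 16, neighbouring genes shifted together. These 2 stretches were delimited after the values were seen, so they are described without a test.

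In the stretch of chromosome 11, 339 of 418 genes (81.1%) had a negative difference of 02 minus 01, with a median of -0.31, a ratio of 0.808. The median was -0.29 on the CD44-positive and -0.32 on the CD44-negative arrays. There 116 genes were called lower in 02 and 1 higher, and the 116 made up 34.7% of all genes called lower in 02 than in 01. In the rest of the chromosome the median over 400 genes was 0.01. The median of 03 minus 01 in the stretch was -0.02, so number 02 was the one apart.

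Examples came from unrelated functions. The neuropeptide gene GAL stood at 10.60 and 10.52 in 02, 11.40 and 11.76 in 01 and 11.06 and 11.19 in 03, a difference of -1.02 between 02 and 01 (adjusted p 0.0117). UCP2, a mitochondrial carrier, was 8.51 and 8.48 in 02 and between 9.01 and 9.46 elsewhere. WNT11, a Wnt ligand, was 7.0 and 6.64 in 02 and between 7.71 and 8.30 elsewhere, and RAB38, a small GTPase, was 9.80 and 9.75 against 10.40 to 10.76. MPZL3 was the 1 gene called the other way, at 5.99 and 5.67 in 02 and between 4.77 and 5.02 elsewhere, and it passed the dim limit through the arrays 02.

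In the stretch of chromosome 16 the shift ran upward in 02. The median of 02 minus 01 over 211 genes was 0.26, a ratio of 1.20, with 0.17 on the CD44-positive and 0.34 on the CD44-negative arrays. There 18 genes were called higher in 02 than in 01 and none lower, and 88 were called lower and 1 higher in 03 than in 02. The rest of the chromosome, 450 genes, had a median of -0.02. CDYL2, a chromodomain protein gene, stood at 7.59 and 6.76 in 02, 6.18 and 5.64 in 01 and 6.04 and 5.41 in 03. Within each sort the array 02 was highest, and 02 minus 01 was 1.27 (adjusted p 0.00585). ANKRD11, a chromatin regulator, was 9.79 on both arrays 02 and between 8.82 and 9.34 elsewhere. TERF2, which binds telomeres, was 7.63 and 7.73 in 02 and between 6.95 and 7.23 elsewhere.

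Windows on chromosomes other than those holding these 2 stretches had medians of 02 minus 01 between -0.19 and 0.20. The highest lay on chromosome 3 between ZNF639 and VWA5B2, and for 03 minus 02 a window on chromosome 7 from DNAJB9 to CADPS2 had a median of 0.33. Together the 2 stretches held 4.54% of the genes tested and 247 (17.3%) of those called by the F-test. DNA copy number was not measured here. Without these genes, a choice made after seeing the data, the F-test called 971 genes, and the contrasts called 233, 528 and 962.

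**Figure D5:**
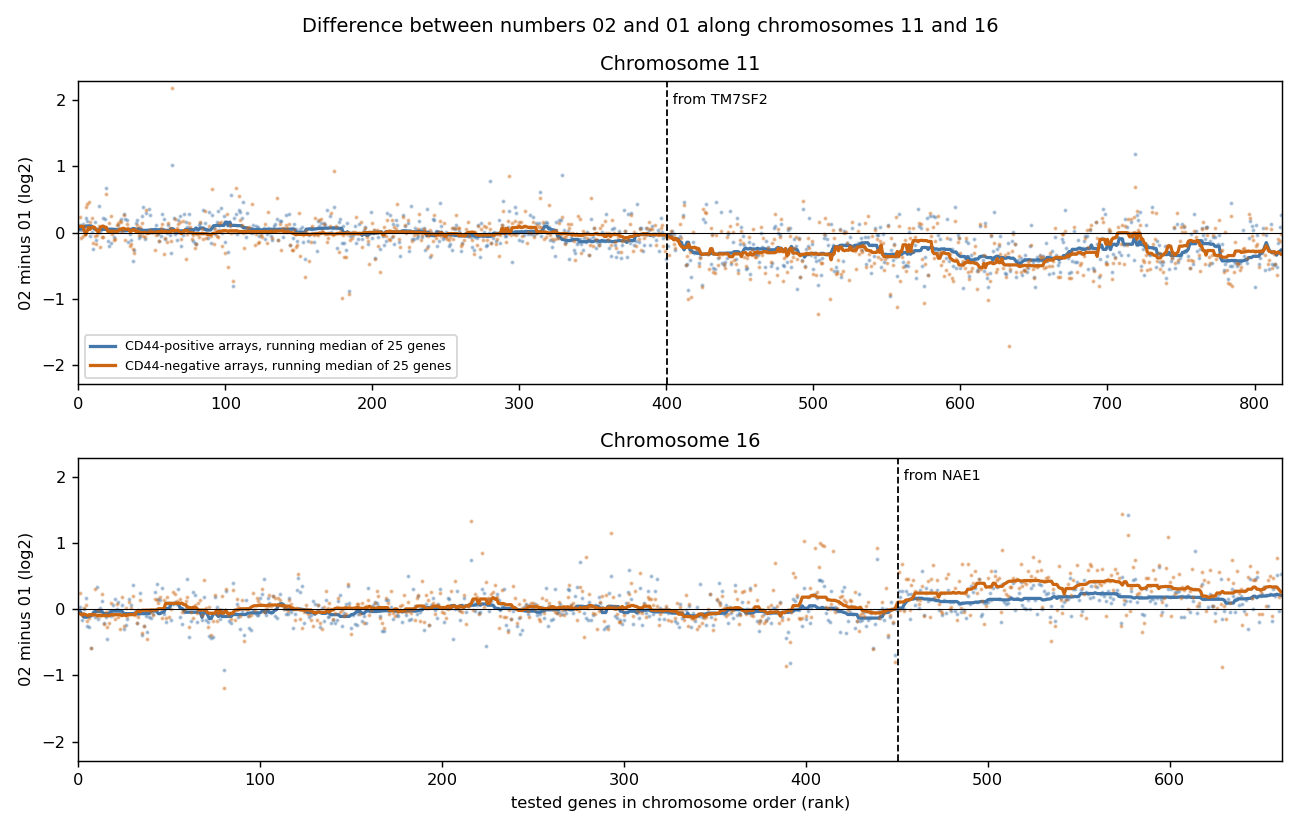
Difference of 02 minus 01 (log2, y axis) for the tested genes of chromosomes 11 and 16 in chromosome order (x axis, rank), with points per gene and running medians of 25 genes for the CD44-positive and CD44-negative arrays. Both lines drop below 0 from TM7SF2 on chromosome 11 and rise above it from NAE1 on chromosome 16, where the CD44-negative line runs higher.

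Some gene lists took members from these stretches. Of 5 cholesterol synthesis genes past the F-test, DHCR7, SC5D and TM7SF2 lie in the stretch of chromosome 11, and HMGCS1, the synthase of the mevalonate pathway, does not. HMGCS1 stood at 8.91 and 8.97 in 02, 9.30 and 9.43 in 01 and 9.29 and 9.50 in 03, and 02 minus 01 was -0.42 (adjusted p 0.0478). SLC7A5, GINS2, NQO1 and MAP1LC3B lie in the stretch of chromosome 16, and HYOU1, NDUFV1 and MALAT1 in that of chromosome 11. The metallothionein genes lie on chromosome 16 before NAE1, outside the stretch.

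CD44, KIT, MYC and AXIN2 were read out whatever their values. CD44, the sort marker, was 7.86, 8.12 and 7.11 on the CD44-positive arrays 01, 02 and 03 and 5.41, 5.29 and 4.99 on the CD44-negative ones. The difference of 03 minus 02 was -0.66 ± 0.15 (adjusted p 0.0402), the F-test gave 0.0546, and the call was lost without the CD44-positive array 02, at 0.231, or 03, at 0.122. The stem cell factor receptor KIT was 10.01, 9.95 and 8.84 on the CD44-positive and 8.84, 9.10 and 8.85 on the CD44-negative arrays, and 03 minus 02 was -0.68 with a 95% interval from -1.24 to -0.11 and an adjusted p of 0.117. MYC, which this line carries amplified, lay between 13.99 and 14.10 on all 6 arrays, and the 95% interval of 02 minus 01 ran from -0.29 to 0.09. AXIN2, a Wnt feedback gene, was 0.43 higher in 03 than in 01 (adjusted p 0.0450), a call lost in each fit that left out 1 array.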

How the data were processed

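Biotin-labelled cRNA from total RNA of the 2 CD44 sorts was hybridised to Affymetrix arrays, 1 array per sort and replicate number. The authors deposited linear intensity values made with RMA, according to the submitters' processing notes. RMA corrects background, quantile-normalizes and summarizes probe sets. The RMA version and genome build are not given in the sources used here. It makes array distributions alike and can compress differences near background. The table held 54675 probe sets, 62 of them controls. The platform annotation named 1 gene for 41091, several for 1801 and none for 11721, and symbols were updated for 41037 of the first through RefSeq's table of genes.

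Here log2 was taken with no pseudocount. The probe set with the highest mean stood for each of 19775 genes, and the 13842 above the 30th percentile of gene means were tested. Levels were fitted with limma 3.58.1 (R 4.3.3) on replicate number with CD44 sort as a covariate, which leaves 2 residual degrees of freedom before moderation. Tests were two-sided with Benjamini-Hochberg adjustment over all genes tested and a threshold of 0.05. The script was tested on simulated data. Errors are SEs from the fit. Tables and figures used Python 3.11.15, pandas 2.3.3, numpy 2.4.6 and matplotlib 3.10.9.

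The grouping, the gene lists and the rule for named genes were chosen with earlier results of these data known. The rule names the 8 largest called differences in each direction of each contrast, CD44, KIT, AXIN2, LGR5 and MYC, and up to 4 members of each list past the F-test. Further list members are named as parts of counts. Genes such as ENO2 passed the dim limit on their mean through 1 number alone (the mean of the other arrays lay below it), and no p supports their differences here. Promoter letters come from the RefSeq table. MT1F and MT1G had no entry in it. Alternatives covered the covariate, scaling, the dim filter, the choice of probe sets, variance moderation, the weighting of arrays and the omission of each array.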

Additional observations from a re-analysis of the deposited data

Results flagged for a closer look

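Of the 11721 probe sets that the annotation pairs with no gene, 4026 were above the dim limit, and 450 of these (11.2%) differed among the replicate numbers by the F-test at an adjusted p under 0.05. This signal lies outside the named genes of the report, of which 10.3% were called. Between 03 and 01, 413 of the unnamed probe sets were higher and 84 lower in 03. Between 03 and 02 there were 230 higher and 63 lower, and between 02 and 01 there were 21 higher and 18 lower. The lower poly-A spike and ribosomal levels on the arrays 03 move with this excess, and their part in it was not tested.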

How the results depend on the processing

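No paired analysis was possible because the replicate number is itself what was compared and cannot also be a block. Each of the 6 single-array omissions leaves 1 number with a lone array, which is assumed to vary like the others. Leaving out arrays or a whole number gave 733 to 2236 genes for the F-test, 126 to 1122 for 02 against 01, 35 to 1329 for 03 against 01 and 366 to 1975 for 03 against 02. Against 1430, 448, 570 and 1375 in the report, the counts that moved by over 1.5 times were these. Without the CD44 covariate, 02 against 01 gave 256. With no dim filter the 4 counts were 745, 277, 123 and 887, and with a filter at the 50th percentile 03 against 01 gave 1328, with 444 higher and 884 lower. Without suffixed probe sets the F-test gave 927, 03 against 01 gave 348 and 03 against 02 gave 891. With every probe set tested these were 3278, 2319 and 3047. A variance trend with robust moderation gave 3149, 998, 1998 and 2381, and array weights gave 719 for 02 against 01 and 100 for 03 against 01. Without the genes of the stretches on chromosomes 11 and 16, chosen after seeing the data, 02 against 01 gave 233. The split of 03 against 01, 284 higher and 286 lower, became 100 and 23 with no filter, 81 and 19 with array weights, 223 and 125 without suffixed probe sets and 620 and 1378 with the variance trend. Of the F-test's 1430 genes, 1338 were shared after median centring, 1285 after quantile normalization and 1045 without the covariate. With the variance trend 1410 were shared, with array weights 1351 and with no dim filter 662. With the 50th percentile filter all 1184 that were still tested were shared. With the mean of probe sets it was 936 of 1378 still tested, and without suffixed probe sets 756 of 1115. Without suffixed probe sets 3 named differences changed sign, LINC00470 to 0.0871 for 02 minus 01, and RRP12 to 0.19 and TGFB1 to 0.26 for 03 minus 01. The 123 named calls counted here take 1 contrast per gene. None changed sign in a fit that left out 1 array, and most lost the call in at least 1 such fit. The 2 arrays per number limit the precision of every value.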

Other observations

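Further gene groups gave mixed values. Of 16 chaperones of the unfolded protein response, HYOU1, DNAJB9, XBP1 and EDEM1 were higher in 03 than in 02 (5.09% of all genes). They differed by 0.47, 0.47, 0.54 and 0.34. The calcium-binding chaperone CALR was lower at -0.36 (4.84% of all genes). The calls of DNAJB9, XBP1 and CALR were lost in several of the fits that left out 1 array. Of 12 replication-dependent histone genes tested, H2BC21 was higher in 02 than in 01 at 0.80 (0.824% of all genes). H2AC8, H2AC6 and H2AC17 were lower in 03 than in 02 (4.84% of all genes), at -0.62, -0.52 and -0.44. The linker histone gene H1-3 was the 1 member higher in 03 than in 02 (5.09% of all genes). The calls of H2AC8 and H2AC6 were lost in several of the fits that left out 1 array. Histone genes have near-identical copies that probe sets may not separate. Among 16 p53 target genes, GADD45A rose by 0.57 (2.05% of all genes) and ZMAT3 fell by 0.67 (2.07%) from 01 to 03. Of 21 hypoxia genes, BNIP3, a mitophagy receptor, stood at 11.60 and 11.28 in 02 and between 10.73 and 10.94 elsewhere, and it was 0.54 higher in 02 than in 01 (adjusted p 0.0276).

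Of 18 TGF-beta and BMP pathway genes, GREM1, the latent TGF-beta binding protein LTBP1 and ID1 were lower in 03 than in 02 (4.84% of all genes). The inhibitor SMAD7 was higher (5.09% of all genes). CMPK2, an interferon-inducible kinase of the mitochondria, stood at 5.52 and 4.55 in 03 and 6.58 and 5.32 in 02. The difference of 03 minus 02 was -0.92 (adjusted p 0.0214). No other gene of the 20 interferon response genes was called in that contrast. This share is near the 4.84% of all genes, so the call gives no result about the list. The glucocorticoid targets MT2A, KLF9, ERRFI1 and CEBPD were lower in 03 than in 02, 4 of 9 tested (4.84% of all genes). CEBPD, like GREM1, passed the dim limit through the arrays 02, and MT2A also belongs to the metallothionein list.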
